A study of Homo sapiens with 6 samples.

Results

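The genes described here are 10 immediate early genes of the AP-1, EGR and DUSP families, namely FOS, FOSB, FOSL1, JUN, JUNB, JUND, EGR1, ATF3, IER2 and DUSP1. They were taken from the deposited tables by gene name, and each name matched 1 of 58735 rows. All 10 were among the 15726 genes with enough counts to be tested. RNA came from NCI-N87, an established human gastric cancer line. In 3 libraries the cells had received the plasmid PLVX-IRES-Puro carrying EGLN3, a prolyl hydroxylase known for marking hypoxia-inducible factors for breakdown, and in 3 libraries the same plasmid without an insert. All 6 libraries had 7 days of puromycin selection, which followed 1 day of plasmid treatment in 5 of them and, by its label, 5 days in EGLN3 replicate 3. Neither clones nor separate cultures are named, so p-values here measure a spread between libraries that may be technical only. The cells were cultured in medium with serum, and no acute stimulus is named in the labels.

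Immediate early genes are switched on within minutes of a growth factor or stress signal, without new protein synthesis, and their transcripts decay quickly. Fos and Jun proteins pair through leucine zippers to form AP-1, which binds DNA upstream of genes for growth, invasion and wound repair. EGR1 is a zinc finger factor driven by serum response factor, and DUSP1 is a phosphatase that switches MAP kinases off again. In epithelial cancers with an active receptor kinase, MAP kinase signalling keeps some of these genes on without a fresh stimulus.

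EGLN3 stood at 7298, 27674 and 27494 counts in EGLN3 replicates 1 to 3, against 10, 11 and 9 counts in empty vector replicates 1 to 3 (log2 fold change 11, edgeR adjusted p = 0.031). Library totals ran from 15157265 to 16767383 counts. The epithelial markers EPCAM, KRT8, KRT18, KRT19 and CDH1 and the receptor gene ERBB2 were all present. Each was at 269 CPM or more in every library (CPM, counts scaled by library total and TMM factor). Of the markers of other cell types, the collagen gene COL1A2 was at 0 counts in every library, the endothelial PECAM1 had at most 1 count and the leukocyte PTPRC at most 7 counts, while VIM stayed at or below 2.24 CPM and COL1A1 at or below 5.15 CPM. These 5 markers summed to 5.16 to 5.94 CPM with EGLN3 and 5.93 to 7.09 CPM with the empty vector. The first principal component of all tested genes held 70% of the variance and did not follow the plasmid, with scores of 59.36, -23.29 and -45.87 in EGLN3 replicates 1 to 3 and of -36.18, 11.54 and 34.44 in empty vector replicates 1 to 3.

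The sequences upstream of JUNB, JUND, IER2 and EGR1 are shown because the transcripts of JUNB, JUND and IER2 went up and down together between libraries, while EGR1 did not join them. Each line holds the 250 bases before the RefSeq transcript start (GRCh38.p14), 5′ to 3′ on the strand of the gene. Capitals mark the core of the cAMP response element (TGACG on either strand), the CArG box to which serum response factor binds, and TATAAA on either strand. The JUNB window is chr19:12791236-12791485 on the plus strand, JUND is chr19:18281623-18281872 on the minus strand, IER2 is chr19:13150161-13150410 on the plus strand, and EGR1 is chr5:138465229-138465478 on the plus strand.
JUNB: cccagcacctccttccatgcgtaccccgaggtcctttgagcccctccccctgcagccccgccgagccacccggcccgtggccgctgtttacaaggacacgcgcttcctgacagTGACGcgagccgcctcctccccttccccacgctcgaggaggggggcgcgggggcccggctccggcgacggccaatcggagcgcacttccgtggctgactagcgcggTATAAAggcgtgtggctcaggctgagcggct
JUND: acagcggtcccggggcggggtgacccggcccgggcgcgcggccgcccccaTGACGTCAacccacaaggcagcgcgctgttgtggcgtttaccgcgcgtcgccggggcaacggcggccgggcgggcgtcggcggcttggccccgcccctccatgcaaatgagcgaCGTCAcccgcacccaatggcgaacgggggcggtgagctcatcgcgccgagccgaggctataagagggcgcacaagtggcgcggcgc
IER2: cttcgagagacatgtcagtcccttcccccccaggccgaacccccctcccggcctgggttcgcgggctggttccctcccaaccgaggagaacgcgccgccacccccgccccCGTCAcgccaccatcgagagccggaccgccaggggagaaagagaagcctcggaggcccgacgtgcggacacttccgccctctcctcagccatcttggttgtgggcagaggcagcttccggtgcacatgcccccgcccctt
EGR1: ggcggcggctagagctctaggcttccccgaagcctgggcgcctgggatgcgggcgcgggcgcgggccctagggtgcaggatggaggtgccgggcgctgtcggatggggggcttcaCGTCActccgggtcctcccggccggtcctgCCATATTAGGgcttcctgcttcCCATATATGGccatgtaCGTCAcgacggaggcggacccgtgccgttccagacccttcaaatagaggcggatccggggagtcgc

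RefSeq windows were found for 9 of the 10 genes, FOSL1 being the one without, and ATF3 had a window for each of its starts, so 10 windows were searched. The core TGACG was in the windows of FOS, FOSB, JUN, JUNB, JUND, EGR1, IER2 and DUSP1, and 21.2% of all 35116 RefSeq windows of this length held it. The full element TGACGTCA, which contains the core, was in those of JUND and DUSP1, against 1.65% of all windows. EGR1 was the one member with CArG boxes in this window, with 2 of them, and 1.16% of all windows had at least 1. It also held 1 copy of the EGR motif GCGNGGGCG (8.41% of all windows). The AP-1 motif, TGACTCA or its reverse complement TGAGTCA, was in none of the 10 (4.2% of all windows). TATAAA was in the windows of JUNB, FOS, FOSB, DUSP1 and the downstream start of ATF3, and in 10.7% of all windows. The JUNB, JUND and IER2 windows had 70.8%, 74.8% and 69.6% G and C, and the EGR1 window 68.4%, against a median of 58% over all windows. The DUSP1 window had 74.4%, and the remaining windows had 44.8% to 65.6%. Such matches describe letters in these windows and say nothing of binding in these cells.

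The genes spanned a wide range of resting levels. In bulk RNA, fewer cells with a transcript and less of it per cell cannot be told apart. JUNB, a Jun protein that holds back JUN at some promoters, was the most abundant transcript per length, at 178, 111 and 96.4 FPKM in EGLN3 replicates 1 to 3 and 116, 155 and 159 FPKM in empty vector replicates 1 to 3 (FPKM, fragments scaled by gene length and library size, as deposited). Its lowest library lay above the highest library of any other member, and 98.5% of tested genes had a lower median FPKM. FOSB, the lowest, was at 1.41, 1.26 and 1.27 FPKM with EGLN3 and at 1.32, 0.798 and 1.12 FPKM with the empty vector, and 26% of tested genes were lower. The order of the medians over 6 libraries was JUNB, JUND, IER2, FOSL1, EGR1, JUN, DUSP1, FOS, ATF3 and FOSB.

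JUND, IER2, FOSL1 and EGR1 lay close together. Their median levels were 49.2, 45.6, 36.5 and 33.7 FPKM, and the range of each over the 6 libraries overlapped that of the next. Within a library, JUND and IER2 were each above FOSL1 in 6 of 6 libraries, while JUND was above IER2 in 3 of 6 and FOSL1 above EGR1 in 4 of 6. JUN, with a median of 21.6 FPKM, lay below all of them and above DUSP1, the MAP kinase phosphatase, at 8.14 FPKM. FOS and ATF3, with medians of 4.49 and 3.41 FPKM, overlapped each other and lay below DUSP1. FPKM divides by the deposited gene length, which for FOS, FOSB, FOSL1, ATF3 and IER2 is longer than the longest GENCODE transcript. The gap was widest for ATF3, with 4040 against 2103 bases, so the level of a gene in this order depends in part on the length used.

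**Figure D1:**
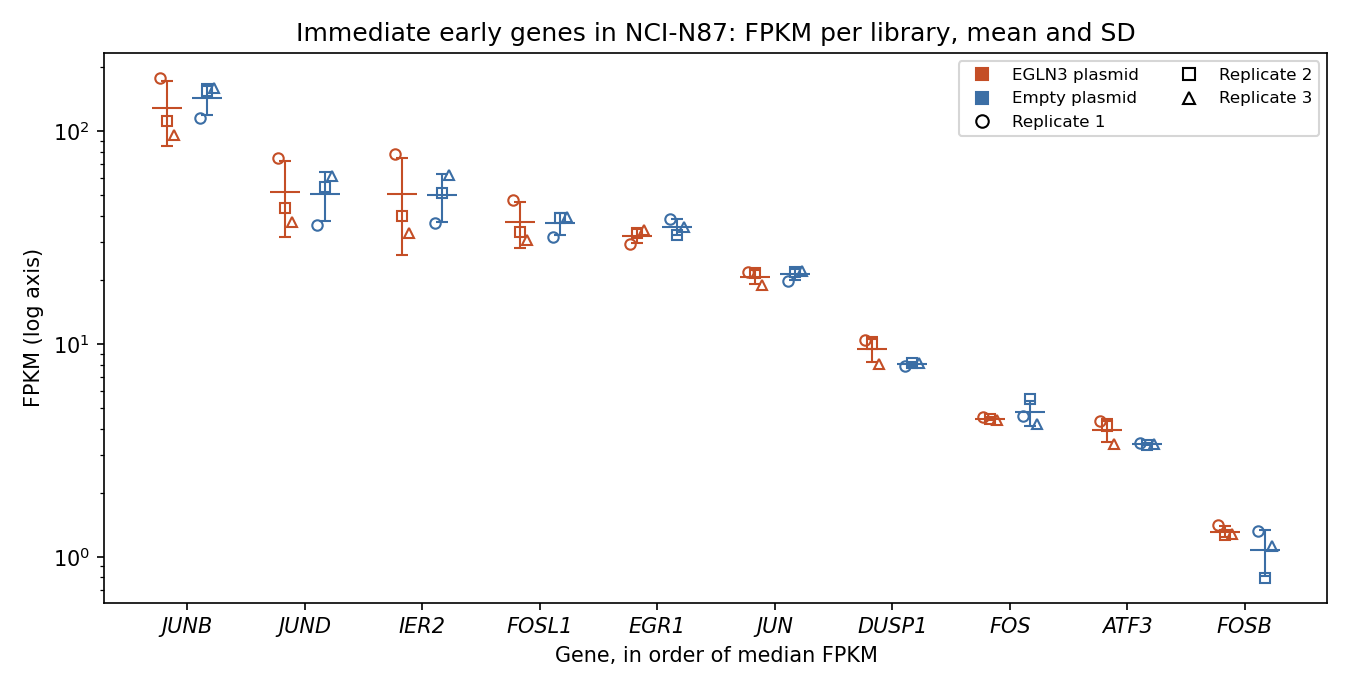
Deposited FPKM on a log axis for each gene in each library, with EGLN3 libraries on the left of each pair and empty vector libraries on the right, and bars for the mean and SD of 3 libraries. JUNB lies above every other gene and FOSB below, and the groups overlap for each of the 10 genes.

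Within their own families, FOSL1 and JUNB held most of the summed FPKM. FOSL1, also called FRA-1 and known as the Fos protein that persists in invasive carcinoma cells, held 58% ± 9.53 of the summed FPKM of FOS, FOSB, FOSL1 and FOSL2 with EGLN3 and 58.3% ± 6.76 with the empty vector (SD, n = 3 each). FOSL2, a close relative included to complete the family, held 33% ± 9.11 with EGLN3 and 32.5% ± 6.47 with the empty vector (SD, n = 3 each). FOS, the Fos protein most tied to an acute stimulus, held 6.99% ± 0.386 with EGLN3 and 7.5% ± 0.877 with the empty vector (SD, n = 3 each). FOSB held 2.05% ± 0.0493 with EGLN3 and 1.71% ± 0.438 with the empty vector (SD, n = 3 each). The share of FOSL1 ran from 50.9% to 68.8% over the EGLN3 libraries and from 50.7% to 63.7% over the empty vector libraries, highest in EGLN3 replicate 1.

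Among the Jun genes, JUNB held a slightly smaller share in each EGLN3 library. Its share of the summed FPKM of JUN, JUNB and JUND was 64.8%, 63.1% and 63% in EGLN3 replicates 1 to 3, against 67.3%, 66.8% and 65.6% in empty vector replicates 1 to 3, and the groups did not overlap. The mean difference was -2.93 percentage points (two-sided exact permutation test, p = 0.1, the smallest that 3 libraries against 3 allow; adjusted p = 0.7 over the 7 shares compared). JUND, a Jun protein that is expressed at a steady level in many cells, held 25.5% ± 1.53 with EGLN3 and 23.4% ± 2.11 with the empty vector, with overlapping groups (SD, n = 3 each). JUN held 10.8% ± 2.54 with EGLN3 and 10% ± 1.31 with the empty vector (SD, n = 3 each). JUNB shares 259 of its 1820 exonic bases with HOOK2 on the opposite strand, which had 1082 to 1771 counts per library. Strand use was not given in the sources used here, so reads from that stretch could belong to either gene.

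**Figure D2:**
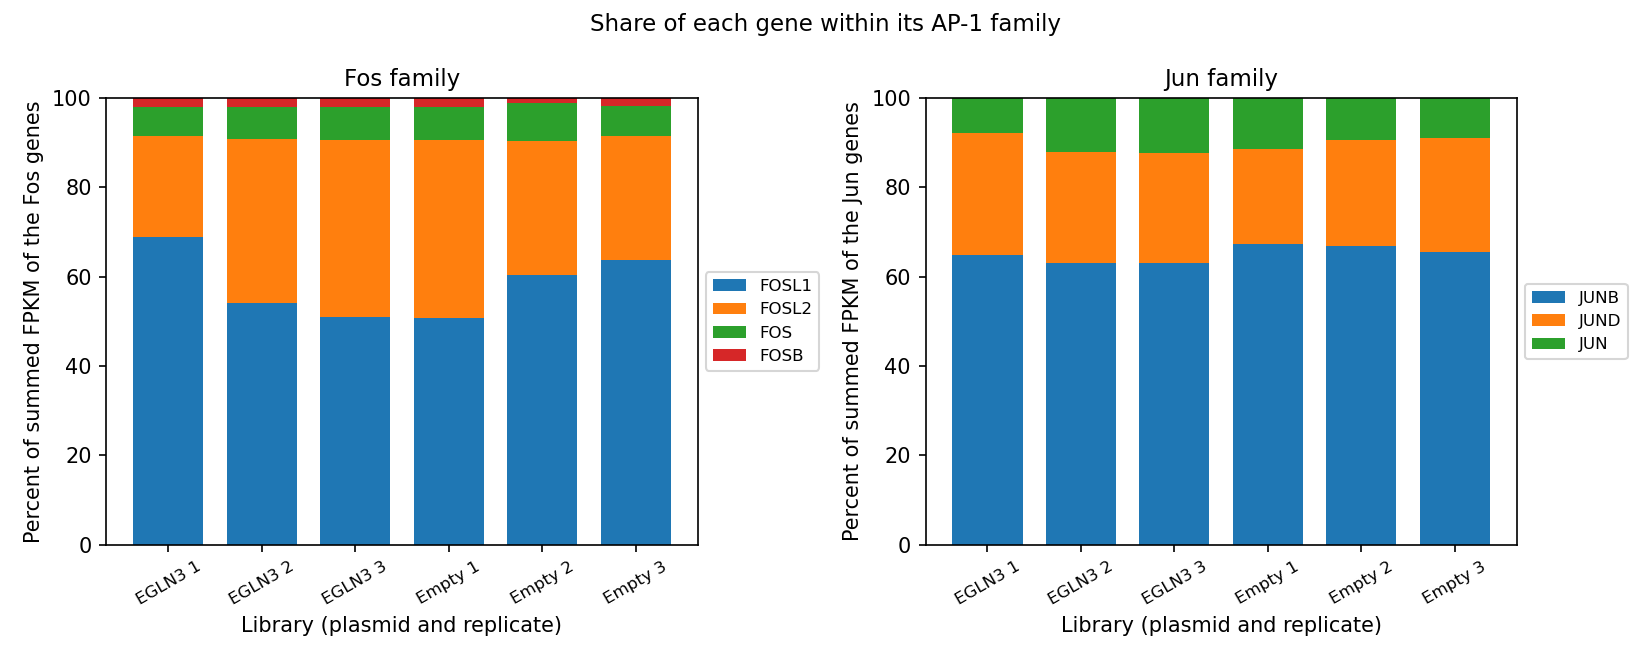
Stacked bars of each gene's percent of the summed FPKM of its family, Fos on the left and Jun on the right, for EGLN3 replicates 1 to 3 and then empty vector replicates 1 to 3. FOSL1 holds between 50.7% and 68.8% of the Fos family, and JUNB between 63% and 67.3% of the Jun family.

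IER2, JUND, JUNB and FOSL1 moved in step between libraries, a grouping made after their values were seen. All of them were highest in EGLN3 replicate 1, then in empty vector replicate 3, then in empty vector replicate 2. The same order of the 3 highest libraries was found for 17.2% of all tested genes (2708 of 15726), and it is also the order of the first principal component. IER2, a nuclear protein induced by growth signals, was at 242, 124 and 104 CPM in EGLN3 replicates 1 to 3, against 116, 158 and 193 CPM in empty vector replicates 1 to 3. The groups overlapped, and the highest library was 2.34 times the lowest, with both of them in the EGLN3 group.

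JUND was at 140, 81.7 and 71.2 CPM with EGLN3, against 69, 103 and 116 CPM with the empty vector. Its highest library was 2.03 times its lowest, and the groups overlapped throughout. JUNB was at 325, 204 and 178 CPM with EGLN3, against 214, 284 and 292 CPM with the empty vector. Apart from EGLN3 replicate 1, the EGLN3 libraries lay below every empty vector library. FOSL1 was at 90.3, 64.2 and 58.9 CPM with EGLN3, against 61.4, 74.6 and 75.4 CPM with the empty vector, a 1.53-fold range with overlapping groups.

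These 4 transcripts were richer in G and C than most, and 3 of them were short. The G and C content of the longest GENCODE transcript was 69.7% for JUND, 64.9% for JUNB, 61.7% for IER2 and 60% for FOSL1, and 99.6%, 96.1%, 90.2% and 85.5% of tested genes were lower. The other 6 members had between 46.7% and 57.7%. Gene lengths were 1863, 1820, 3072 and 1887 bases for JUND, JUNB, IER2 and FOSL1, and 84.6%, 85.1%, 68.1% and 84.3% of tested genes were longer. Short length was not particular to them, since DUSP1 had 2019 bases, with 82.6% of tested genes longer. The remaining members had 3138 to 5553 bases. JUN, JUNB, JUND and IER2 each have 1 exon in that transcript, and JUN, with 56.7% G and C and 3540 bases, varied less than the other Jun genes, by 1.15-fold between its highest and lowest library. The part of base composition and length in the shared pattern was not tested.

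**Figure D3:**
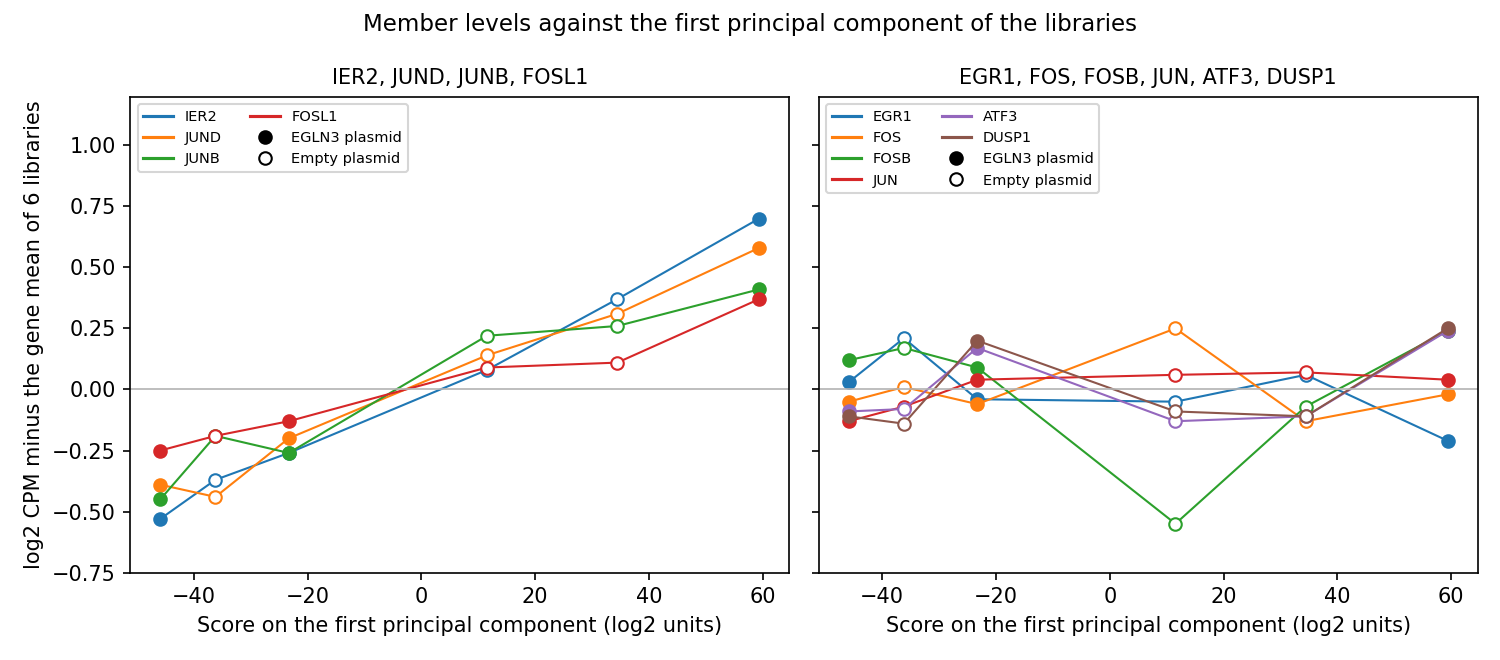
log2 CPM minus each gene's mean over the 6 libraries (vertical axis) against the library's score on the first principal component (horizontal axis), with filled points for EGLN3 libraries and open points for empty vector libraries. IER2, JUND, JUNB and FOSL1 on the left are above their mean in the 3 libraries with positive scores and below it in the other 3, while none of the 6 genes on the right has all 6 libraries split this way, JUN coming nearest with 5 of 6 and a smaller swing.

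JUN, EGR1, ATF3, FOS and DUSP1 were steadier between libraries, with SDs of log2 CPM within groups of 0.09 to 0.14, and FOSB less so, at 0.27. JUN, the founding AP-1 subunit, was at 77.1, 76.8 and 68.2 CPM with EGLN3, against 71.3, 78.2 and 78.5 CPM with the empty vector, and its highest library was 1.15 times its lowest. An SD smaller than that of JUN, 0.09, was found for 7.57% of tested genes. EGR1 was at 92.6, 105 and 110 CPM with EGLN3, against 124, 104 and 112 CPM with the empty vector. It was lowest in EGLN3 replicate 1, the library in which IER2, JUND, JUNB and FOSL1 were highest, and its groups overlapped.

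FOS was at 14.8, 14.5 and 14.5 CPM with EGLN3, against 15.1, 17.9 and 13.7 CPM with the empty vector. The EGLN3 libraries lay within the range of the empty vector libraries. FOSB was at 7.85, 7.05 and 7.18 CPM with EGLN3, against 7.45, 4.47 and 6.28 CPM with the empty vector, with empty vector replicate 2 as the low one. FOSB rests on 119, 119 and 115 counts with EGLN3 and 128, 70 and 100 counts with the empty vector. Counting alone gives a coefficient of variation of 6.55% for FOS with EGLN3, and the measured one was 1.19%, so the closeness of those 3 values is below what the depth can resolve. Over the 10 members the median SD of log2 CPM within groups was 0.2, against 0.3 over all tested genes, and it was largest for IER2, at 0.53, with 81.8% of tested genes smaller.

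ATF3 and DUSP1, a pair picked out after their values were seen, were higher in EGLN3 replicates 1 and 2 than in any other library. Both replicates lay above every empty vector library for 4.59% of tested genes. ATF3, a stress-induced partner of Jun proteins, was at 17.6, 16.7 and 13.9 CPM in EGLN3 replicates 1 to 3, against 14.1, 13.6 and 13.7 CPM in empty vector replicates 1 to 3. DUSP1 was at 21.2, 20.4 and 16.5 CPM in EGLN3 replicates 1 to 3, against 16.2, 16.7 and 16.5 CPM in empty vector replicates 1 to 3. For both genes EGLN3 replicate 3, the library with the different label for days with the plasmid, lay within the empty vector range. Its EGLN3 level was as high as that of EGLN3 replicate 2, at 1717 and 1640 CPM. The part of the days with the plasmid or of the EGLN3 level was not tested. The empty vector values were closer to each other than counting allows on average, with coefficients of variation of 1.79% for ATF3 and 1.52% for DUSP1, against 6.67% and 6.12% from counting alone.

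With the EGLN3 plasmid set against the empty vector, none of the 10 genes changed by the test used. In edgeR's quasi-likelihood test 0 of the 10 members had an adjusted p under 0.05, and 0 had an unadjusted p under 0.05, against 1.11% of tested genes. DESeq2 and limma-voom also called 0 members, with 0 at an unadjusted p under 0.05. The test called 0.00636% of all genes, which is EGLN3 alone among 15726, so it made next to no calls anywhere. In CPM the libraries of both groups overlapped for every member, while 6.26% of tested genes had no overlap. The median log2 fold change of the members was 0.01 and that of all tested genes 0.01, with median sizes of 0.12 and 0.12, and 6 members were above 0 and 4 below.

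The 95% intervals set what these libraries could show, before adjustment for many genes. They were narrowest for JUN, at a log2 fold change of -0.04 (edgeR, SE 0.12, interval -0.33 to 0.26), and for EGR1, at -0.14 (SE 0.14, interval -0.47 to 0.18). FOS was at -0.10 (SE 0.15, interval -0.45 to 0.25). An interval that includes 0 does not show that a gene stayed the same. They were widest for IER2, at 0.01 (SE 0.36, interval -0.84 to 0.86), and for JUND, at 0.03 (SE 0.31, interval -0.72 to 0.77). JUNB was at -0.16 (SE 0.26, interval -0.78 to 0.46) and FOSL1 at 0.01 (SE 0.20, interval -0.46 to 0.49). The members farthest above 0 were FOSB at 0.28 (SE 0.22, interval -0.24 to 0.79), DUSP1 at 0.24 (SE 0.15, interval -0.11 to 0.58) and ATF3 at 0.22 (SE 0.14, interval -0.12 to 0.56). Without empty vector replicate 2, the low library of FOSB, its value was 0.12, below that of DUSP1, at 0.26, and of ATF3, at 0.22, and without empty vector replicate 1 it was 0.45. EGR1 stood at -0.06 without EGLN3 replicate 1 and at -0.07 without empty vector replicate 1. Each of the 10 had an edgeR adjusted p of 1, and the smallest unadjusted p was 0.15, for DUSP1.

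**Figure D4:**
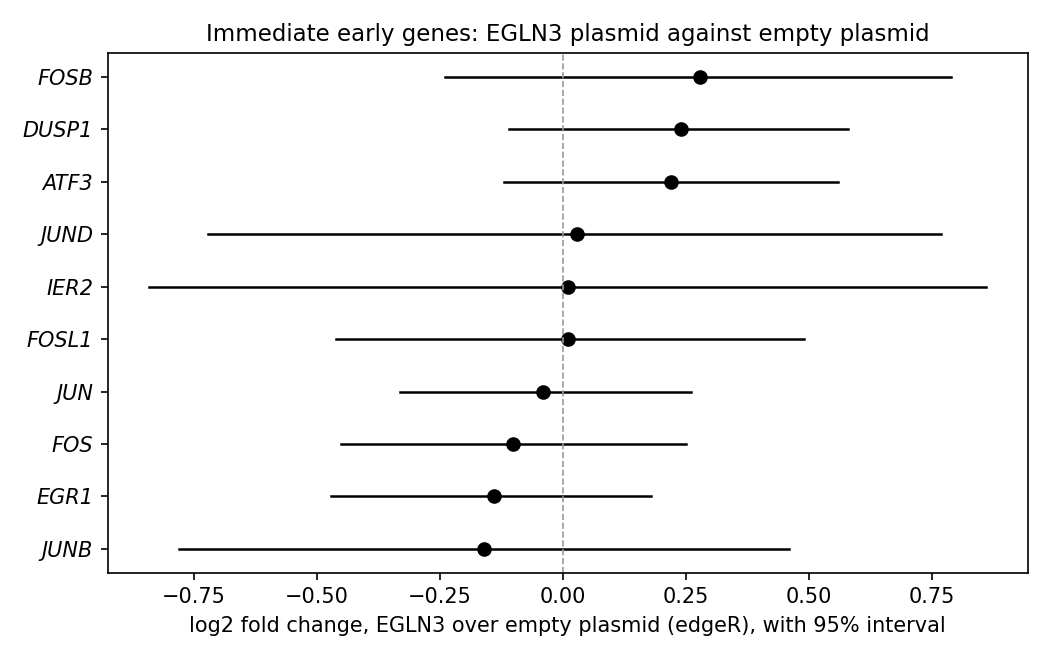
log2 fold change of each gene, EGLN3 plasmid over empty vector, from edgeR's quasi-likelihood test (points) with 95% intervals before adjustment (lines). Every interval includes 0, from JUN with the shortest, -0.33 to 0.26, to IER2 with the longest, -0.84 to 0.86.

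Leaving out single libraries moved some of these values. Without EGLN3 replicate 3, ATF3 and DUSP1 were higher with EGLN3 with no overlap, which held for 4.59% of tested genes, and their log2 fold changes were 0.31 and 0.34 (edgeR, adjusted p = 1 for both). Without EGLN3 replicate 1, JUNB was lower with EGLN3 with no overlap, which held for 16.8% of tested genes, and its log2 fold change was -0.45 (edgeR, SE 0.18, unadjusted p = 0.038, adjusted p = 0.48). In that fit 8.74% of tested genes had an unadjusted p under 0.05. In the same fit IER2 stood at -0.44 (SE 0.23) and JUND at -0.31 (SE 0.23), each with the opposite sign to the fit on all libraries. EGLN3 replicate 1 was also, of the 3 libraries with the EGLN3 plasmid, the one with the least EGLN3, at 481 CPM. It had the highest score on the first principal component as well, 59.36. For this library its EGLN3 level and its place on that axis cannot be told apart, and the part of either was not tested. The empty vector libraries, with 9 to 11 EGLN3 counts, also differed on that axis, from -36.18 to 34.44. Without empty vector replicate 1, groups did not overlap for FOSB and ATF3, higher with EGLN3, and for JUN, lower with EGLN3, against 14.3% of tested genes in either direction. Without empty vector replicate 2 this was so for EGR1 (9.39% of tested genes) and without empty vector replicate 3 for FOS (13.3%), both lower with EGLN3. In CPM of the raw totals, without TMM scaling, it was so for ATF3 and DUSP1, higher with EGLN3, against 6.34% of tested genes.

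Fits with a surrogate variable, an axis estimated from the libraries, gave narrower errors and still called none of the members. How that axis relates to the first principal component is not given here. With 1 surrogate variable in the model, 4.76% of tested genes were called and 0 of the 10 members. IER2 was then at 0.005 (SE 0.05) and JUND at 0.05 (SE 0.05), JUNB at -0.15 (SE 0.05; edgeR, adjusted p = 0.082) and EGR1 at -0.16 (SE 0.06; edgeR, adjusted p = 0.1). At an unadjusted p under 0.05 there were 4 members, JUNB and EGR1 below 0 and ATF3 and DUSP1 above, against 19.5% of all tested genes. With trends on G and C content and gene length taken out as well, 0.986% of tested genes were called and again 0 members. The 5 members at an unadjusted p under 0.05 were then FOSB, FOSL1, JUND, IER2 and DUSP1, all above 0, against 13.1% of all tested genes, while JUNB was at -0.02 (SE 0.04) and EGR1 at -0.08 (SE 0.06). DUSP1 was the 1 member under that mark in both, at 0.25 (SE 0.10; edgeR, adjusted p = 0.15) and 0.31 (SE 0.09; edgeR, adjusted p = 0.12). Errors of these fits leave out the uncertainty of the estimated axis and may be too small.

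The wider pathway was described with 5 lists of 98 genes, of which 96 were found by name and 88 tested. In edgeR's quasi-likelihood test 0 of the 88 were called in either direction, 2 had an unadjusted p under 0.05 (1.11% of all tested genes did), 43 were above 0 and 45 below. Groups did not overlap for 3 of the 88, MAFK, RHOB and MMP14, all lower with EGLN3, against the 6.26% of all tested genes given above. Other subunits that pair with AP-1 proteins (14 of 14 tested) had a median log2 fold change of -0.01. MAFK, a small Maf protein, was at 54.2, 63.9 and 58 CPM with EGLN3, against 82.5, 82.3 and 69 CPM with the empty vector (log2 fold change -0.41, SE 0.14; edgeR, unadjusted p = 0.023, adjusted p = 1). ATF2, a Jun partner, was at 0.27 (SE 0.18) and BATF, which also pairs with Jun proteins, at -0.65 (SE 0.46). BATF was low, at 1.44 to 4.58 CPM over the libraries.

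Other immediate early genes (27 of 28 tested, EGR3 being too low) had a median log2 fold change of 0.04. RHOB, a small GTPase induced by growth factors, was at 306, 289 and 266 CPM with EGLN3, against 330, 376 and 355 CPM with the empty vector (log2 fold change -0.30, SE 0.13; edgeR, unadjusted p = 0.054, adjusted p = 1). BTG1, which slows proliferation, was at 0.32 (SE 0.19), and the nuclear receptor NR4A2 at 0.35 (SE 0.22). Feedback genes of the MAP kinase pathway (19 of 19 tested) had a median of -0.02. NAB2, a corepressor that binds EGR1, was at -0.31 (SE 0.18), the ERK phosphatase DUSP4 at 0.13 (SE 0.13) and SPRY2, an inhibitor of receptor kinase signalling, at 0.15 (SE 0.16).

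MAP kinases, their kinases and the factors that act with serum response factor (17 of 19 found by name, all tested) had a median of 0.06. The kinases RPS6KA5, RPS6KA1 and MAPK8, also called JNK1, were at 0.39 (SE 0.34), -0.15 (SE 0.14) and 0.17 (SE 0.16). RPS6KA5 was low, at 0.83 to 1.80 CPM over the libraries. Of 18 genes known as AP-1 targets in other cells, 11 were tested, with a median of -0.03, and the 7 too low to test included MMP1, MMP3, MMP9, MMP10, MMP13 and IL6. MMP14, a membrane-bound matrix protease, was at 27.3, 32.2 and 30.9 CPM with EGLN3, against 38.3, 39 and 38.1 CPM with the empty vector (log2 fold change -0.35, SE 0.12; edgeR, unadjusted p = 0.027, adjusted p = 1). The growth factor HBEGF was at 0.27 (SE 0.25) and the chemokine CXCL8 at -0.18 (SE 0.16).

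The profiles most like those of FOS, EGR1 and JUN over the 6 libraries were found by a fixed measure of likeness. It was the root mean square difference of log2 CPM after each gene's mean was taken off, over 12784 protein-coding genes. Among the nearest to FOS was the integrin gene ITGA5, at 0.05, and among the nearest to EGR1 was SOX13, a transcription factor gene, at 0.021. The nearest to JUN were UQCC1 and ARHGEF39, at 0.012 and 0.013. The distances named were shortest for JUN and longest for FOS. This measure is small between any genes that vary little, and JUN had the smallest SD within groups of the members, 0.09. A short distance to JUN therefore does not show movement in step with it.

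Of the 4 genes that moved in step, 3 are on chromosome 19, as is FOSB, which did not move with them. The share of tested genes on that chromosome is not given here, and a link to position was not tested. JUNB (ENSG00000171223) lies at chr19:12791496-12793315 on the plus strand and JUND (ENSG00000130522) at chr19:18279760-18281622 on the minus strand. IER2 (ENSG00000160888) lies at chr19:13150415-13154908 on the plus strand, 357099 bases past JUNB with 33 annotated genes between them, and FOSL1 (ENSG00000175592) at chr11:65892049-65900573 on the minus strand. FOS is on chromosome 14, FOSB on chromosome 19, JUN and ATF3 on chromosome 1, and EGR1 and DUSP1 on chromosome 5. IER2 shares 946 of 3072 exonic bases with the antisense gene AC011446.2, which had 0 counts in every library. With strand use not given, those 0 counts do not show whether all reads from that stretch were counted for IER2. FOSB lies within the span of ERCC1 on the opposite strand but shares none of its exons.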

How the data were processed

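Both tables were deposited by the authors with 1 row per gene and 1 column per library. Gene counts are deposited whole numbers without scaling. The deposited FPKM are those counts over gene length and a library factor, and the factor matches a DESeq2 size factor multiplied by the totals' geometric mean. The submitters' processing notes name hg38, DESeq2 1.20.0, featureCounts 1.5.0-p3 and HISAT2 2.0.5. Not given in the sources used here are strand use and annotation.

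Here counts were filtered with filterByExpr, TMM scaled and fitted over all genes in edgeR 4.0.16 (R 4.3.3; quasi-likelihood test), with Benjamini-Hochberg adjustment and a threshold of 0.05. SE is the fold change over the square root of F. Alternatives used DESeq2 1.42.0, limma 3.58.1, RLE scaling, no filter, a replicate block, log2(FPKM + 1) or log2(FPKM + 0.1) with at least 0.5 FPKM in 3 libraries, 1 surrogate variable (sva 3.50.0), and each library left out. After the data had been seen, spline trends (5 degrees of freedom) on GC content and length were added, and overlap was counted without each library. Centred log2 CPM carry a prior count of 2. The fits were tested on simulated counts with the same dispersion for every gene and no shared axis between libraries. That test therefore does not cover the axis seen in these libraries. GC content came from GENCODE release 29 transcripts and promoters from RefSeq.

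The members and the gene lists were chosen with earlier results of these data known. Of each list the 3 genes with the smallest p, any calls, and genes whose groups did not overlap are named; the rule for genes nearest in profile takes 2 each for FOS, EGR1 and JUN. A few genes these rules select are not reported here. Each library was counted as a replicate. Library pairs of a group differed by 8.07 to 104 in chi-square per degree of freedom, which does not show that they came from separate cultures. Depth was 15157265 to 16767383 counts per library, and counting error is given where it limits a value.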

Additional observations from a re-analysis of the deposited data

How the results depend on the processing

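The count of members called stayed at 0 in each of the 15 alternatives run, and 127 of 150 member values kept their sign. The genes called, 1 in the fit as designed, came to 0 with limma-voom, 0 with the replicate block, 0 with log2(FPKM + 1), 749 with 1 surrogate variable and 155 with GC and length trends as well. Leaving out 1 library gave 0 to 1 genes. Members without overlap, 0 as designed, came to 2 in CPM of the raw totals and to 0 to 3 when 1 library was left out. Of all tested genes, 6.26% had no overlap as designed and 6.34% in CPM of the raw totals. Without 1 empty vector library the share was 9.39% to 14.3%. Without EGLN3 replicate 1, 16.8% were lower with EGLN3 with no overlap, and without EGLN3 replicate 3, 4.59% were higher. Members near 0 turned sign. FOSL1, JUND and IER2 were at -0.006, -0.005 and -0.06 with limma-voom, -0.007, -0.01 and -0.07 with the replicate block, -0.002, -0.0009 and -0.05 with log2(FPKM + 1), and -0.002, -0.001 and -0.06 with log2(FPKM + 0.1). IER2 was at -3e-05 without the filter, and JUN at 0.06 with the surrogate variable and trends. The cause of these turns was not tested. Over the 6 fits without 1 library, FOSL1 ran from -0.18 to 0.13, JUND from -0.31 to 0.21, IER2 from -0.44 to 0.23, JUN from -0.08 to 0.02, JUNB from -0.45 to 0.005, FOS from -0.18 to 0.03, FOSB from 0.12 to 0.45, EGR1 from -0.2 to -0.06, ATF3 from 0.16 to 0.31 and DUSP1 from 0.18 to 0.34. Deviations of same-numbered libraries correlated at -0.793, -0.176 and -0.674, so the replicate numbers gave no sign of pairing. The first principal component, with 70% of the variance, weighs on these values, so a smaller paired effect could be missed. The replicate block changed no member's call. The median SD within groups was 0.13 on log2(FPKM + 1) and 0.15 to 0.22 without 1 library. At 70 to 128 counts, FOSB is the member most limited by depth.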
